A study of Mus musculus with 11 samples.

Results

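A set of 10 genes of the JAK-STAT3 pathway, among the 55401 rows of the deposited gene count table, was followed across 11 libraries of sorted mouse microglia. They were Il6ra, Il6st and Il10ra (receptor chains), Stat3 (the transcription factor), Bcl3 and Pim1 (2 of its target genes), and Socs3, Socs1, Socs2 and Cish (feedback inhibitors). The genes were picked by name after Socs3 had been seen to be higher in the libraries without Tyrobp, so the values of these 10 genes in the comparisons between Tyrobp genotypes are a description only, and the calls counted there for them are no independent evidence. Their response to the Inpp5d genotype, which the choice did not use, was tested. All 10 passed the filter on low counts and are among the 20390 genes tested.

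All 4 genotypes shared the NLGF line's App knock-in, a model of amyloid plaques, in C57BL/6 mice aged 9 to 10 months. Brain cells that were alive and positive for CD11b and CD45 were taken as microglia by flow cytometry. The genotypes were NLGF with 3 libraries, Inpp5d+/-;NLGF (here Inpp5d heterozygotes) with 3, Tyrobp-/-;NLGF (here Tyrobp knockouts) with 2, and Tyrobp-/-;Inpp5d+/-;NLGF (here the compound mutant) with 3. Inpp5d encodes the phosphatase SHIP1, and Tyrobp encodes DAP12, the adaptor through which the receptor TREM2 signals. Every group, the controls included, carried the NLGF alleles, so no library shows these genes without that knock-in. Knockout and heterozygosity are described by the labels without a driver line or cell type restriction, and whether libraries came from single or pooled animals was not given in the sources used here.

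Cytokines of the interleukin-6 family act through receptors that contain the shared chain gp130, encoded by Il6st, and interleukin-10 acts through a receptor that contains the product of Il10ra. Both kinds of receptor activate JAK kinases, which phosphorylate STAT3, and phosphorylated STAT3 enters the nucleus and induces its target genes. Socs3 is one of these targets. Its product binds gp130 and the JAK kinases and dampens interleukin-6 signals, while interleukin-10 signals largely escape it. In microglia and other macrophages this arrangement is known for separating the inflammatory effects of interleukin-6 from the anti-inflammatory effects of interleukin-10. SOCS1, SOCS2 and CIS (the product of Cish) restrain mainly interferon, growth hormone and STAT5 signals. Transcript levels do not report STAT3 phosphorylation.

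STAT factors bind DNA at palindromes of the form TTCNNNGAA, which read the same on both strands. RefSeq promoter windows on GRCm38.p6, each of 300 bases (250 before and 50 after a transcript start), were searched for these letters. Windows were at hand for 8 of the 10 genes, and Socs2 and Il10ra had no entry. A match was found for 2 of the 8, Socs3 and Cish, and such matches occur in 8.3% of the 32851 windows in the table. The stretches that hold the matches are shown because Socs3 and Cish differed in their values below, with the matched letters in capitals, 5′ to 3′ along the strand of each gene.
Socs3 upstream: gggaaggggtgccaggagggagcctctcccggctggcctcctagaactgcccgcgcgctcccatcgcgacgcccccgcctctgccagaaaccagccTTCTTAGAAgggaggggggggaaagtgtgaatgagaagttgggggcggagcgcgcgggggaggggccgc
Cish start: agttTTCCTGGAAagTTCTTGGAAatctgt
The Socs3 stretch is chr11:117969452-117969616 on the minus strand, upstream of the RefSeq start, and the match begins 154 bases before that start. The stretch lies inside the annotated span of Socs3, 117966079 to 117970047. The Cish stretch is chr9:107296655-107296684 on the plus strand, inside the annotated span of Cish, 107296026 to 107302784. Its 2 matches begin at bases 1 and 12 of the RefSeq transcript. Windows with 2 or more matches make up 0.457% of the table. No match was found in the windows of Socs1, Stat3, Bcl3, Pim1 (2 windows), Il6st and Il6ra. For Socs3, 130 bases between this window and the start of the main annotated transcript were not searched. A match describes letters in the reference and is not a measured binding site.

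Library totals ran from 29490567 to 66637052 counts, and 20203 to 22662 genes were detected per library. In CPM (read counts scaled by library size), the targeted gene Tyrobp measured 2194 ± 318 (mean ± SD, n = 3) in NLGF, 2145 ± 179 (n = 3) in Inpp5d heterozygotes, 7.98 ± 1.36 (n = 2) in Tyrobp knockouts and 5.16 ± 2.81 (n = 3) in the compound mutant. Inpp5d measured 318 ± 116, 230 ± 45.5, 448 ± 1.26 and 236 ± 40.3 CPM in the same order. The microglia markers P2ry12 and Tmem119 were high in every library: P2ry12 ran from 4880 to 7399 CPM, and Tmem119 from 3040 to 3827 CPM in the libraries with Tyrobp and from 5085 to 5669 CPM in those without it. The 12 neutrophil markers summed to 0.641 to 232.6 CPM in the 6 libraries with Tyrobp and to 244 to 18600 CPM in the 5 without it. The 8 monocyte markers summed to 12.4 to 53.7 and to 51.8 to 546 CPM in the same sets, and the 8 markers of border-associated macrophages to 3.66 to 26.8 and to 27.7 to 131 CPM. F13a1 made up most of the macrophage sum in Tyrobp knockouts, at 28.2 and 113.5 CPM beside sums of 47.3 and 131 CPM. All 8 macrophage markers had log2 fold changes above 0 in both Tyrobp comparisons, and edgeR called none of them. The part of the monocyte and macrophage markers in the values below was not tested. The 6 neuron markers summed to 18.5 CPM in compound replicate 1 and to 0.278 to 6.46 CPM elsewhere. The sample titles number the libraries with and without Tyrobp in ranges that do not meet, so the Tyrobp genotype and any difference in handling or litter cannot be told apart. In bulk RNA, fewer cells of a type and less RNA per cell cannot be told apart either.

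Per deposited gene length, Il10ra, Il6st and Socs3 had the highest mean levels of the 10 genes in NLGF, and Cish had the lowest. That length is 1 value per gene and need not be the length of a single transcript. It is 2891 bases for Socs3, 9527 for Stat3 and 11099 for Il6st, and the order of the genes depends on it. In NLGF the levels in RPKM (CPM divided by gene length in kilobases) were 120 for Il10ra, 26.6 for Il6st, 14.4 for Socs3, 10 for Stat3 and 6.36 for Il6ra. Those of Bcl3, Socs1, Pim1, Socs2 and Cish were 2.81, 2.28, 0.467, 0.296 and 0.111 RPKM. In Tyrobp-/-;NLGF, Socs3 at 75.4 RPKM stood between Il10ra at 208 and Il6st at 21. In the compound mutant the corresponding levels were 74.4 RPKM for Socs3, 177 for Il10ra and 22.4 for Il6st. Socs3 thus exceeded Il6st per length in both Tyrobp-/- groups and lay below it in both groups with Tyrobp, where Inpp5d+/-;NLGF had 19.3 RPKM of Socs3 and 28.5 of Il6st.

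**Figure D1:**
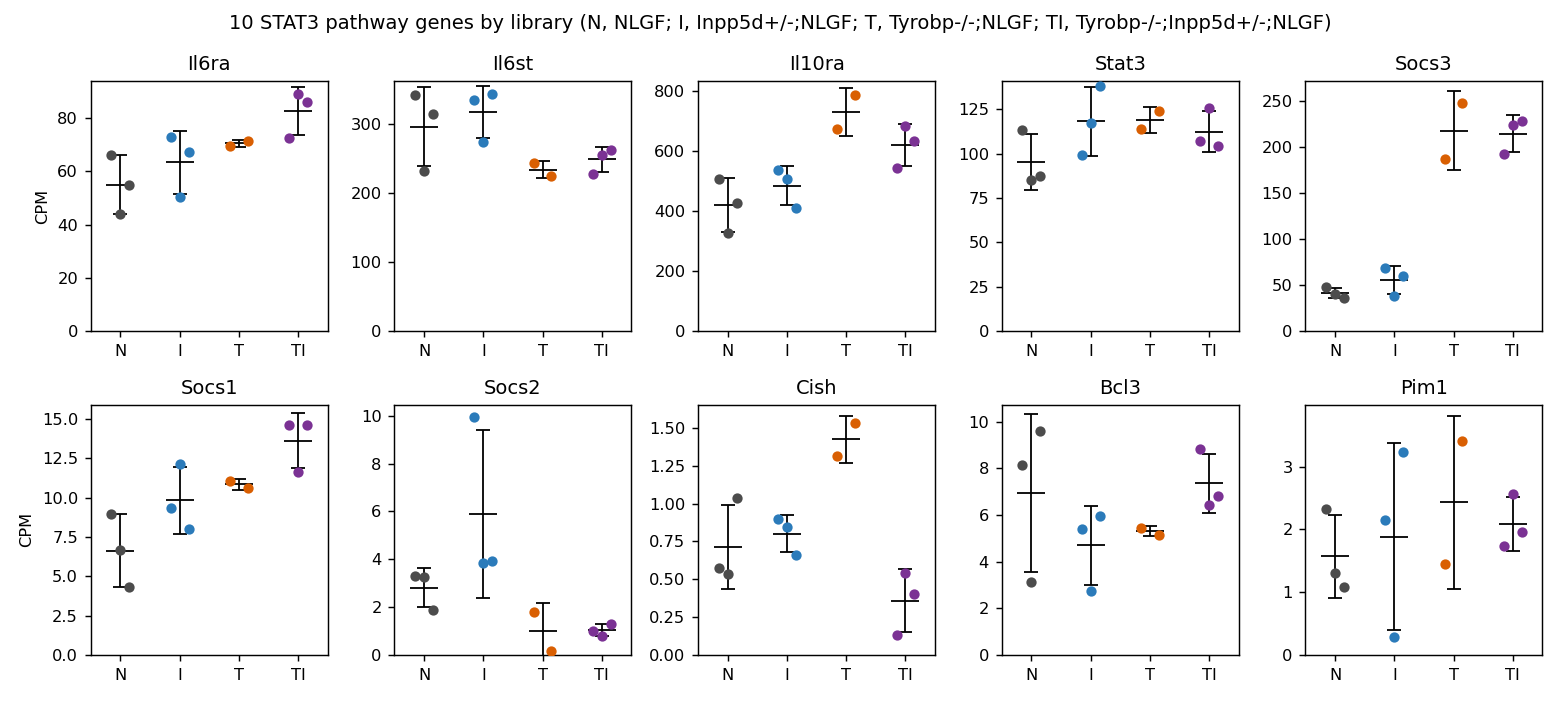
CPM of the 10 genes in each library, 1 panel per gene, with points for libraries and bars for the mean ± SD (n = 3, 3, 2 and 3; bars are cut at 0). Socs3 is the gene whose 5 Tyrobp-/- libraries (188 to 248 CPM) lie farthest above the 6 others (36.6 to 68.6 CPM), and Socs2 the one whose Tyrobp-/- libraries (0.167 to 1.81 CPM) all lie below the others (1.89 to 9.96 CPM).

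Il10ra, the ligand-binding chain of the interleukin-10 receptor (chromosome 9, 45253837 to 45269149), was higher in all libraries without Tyrobp. It was at 508, 328 and 426 CPM in NLGF, at 535, 505 and 410 CPM in Inpp5d heterozygotes, at 672 and 785 CPM in Tyrobp knockouts, and at 543, 683 and 632 CPM in the compound mutant. The lowest Tyrobp-/- library, at 543 CPM, was just above the highest library with Tyrobp, at 535 CPM. The log2 fold change was 0.79 (SE 0.184) for Tyrobp-/-;NLGF against NLGF and 0.36 (SE 0.167) for the compound mutant against Inpp5d+/-;NLGF. With the Inpp5d genotype Il10ra differed by 0.2 (SE 0.167, edgeR adjusted p = 1) where Tyrobp was present and by -0.23 (SE 0.186, edgeR adjusted p = 1) where it was absent, and the groups overlapped in both.

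Il6st, the gp130 chain shared by the interleukin-6 family (chromosome 13, 112464070 to 112510086), had lower means without Tyrobp. Its levels were 341, 231.1 and 313 CPM in NLGF, 335, 273 and 342 CPM in Inpp5d heterozygotes, 243 and 224 CPM in Tyrobp knockouts, and 227, 255 and 262 CPM in the compound mutant. The compound libraries all lay below the Inpp5d+/-;NLGF libraries, while NLGF replicate 2 lay among the Tyrobp-/-;NLGF libraries. The log2 fold changes were -0.34 (SE 0.167) and -0.35 (SE 0.148) without and with the Inpp5d+/- genotype. Between Inpp5d genotypes Il6st differed by 0.1 (95% interval -0.23 to 0.433, edgeR adjusted p = 1) where Tyrobp was present and by 0.09 (95% interval -0.284 to 0.459, edgeR adjusted p = 1) where it was absent.

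Il6ra (chromosome 3, 89864059 to 89913196) encodes the chain that binds interleukin-6 itself. It was at 66.1, 44 and 54.7 CPM in NLGF, at 72.9, 50.3 and 67.1 CPM in Inpp5d heterozygotes, at 69.5 and 71.3 CPM in Tyrobp knockouts, and at 72.3, 89.1 and 86.1 CPM in the compound mutant. The NLGF and Tyrobp-/-;NLGF libraries did not overlap, but Inpp5d+/-;NLGF replicate 1 exceeded the lowest compound library. The log2 fold changes were 0.36 (SE 0.202) and 0.38 (SE 0.182). Il6ra differed between Inpp5d genotypes by 0.21 (SE 0.182, edgeR adjusted p = 1) where Tyrobp was present and, where Tyrobp was absent, by 0.23 (SE 0.204, edgeR adjusted p = 1), the last without overlap. Its exons share bases with the antisense gene Gm42809, counted at up to 19.4 CPM, and without strand the reads of the pair cannot be told apart.

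Stat3, which encodes the transcription factor at the centre of the pathway (chromosome 11, 100885098 to 100939540), varied less than 2-fold between libraries. It was at 113, 84.9 and 87.7 CPM in NLGF, at 99.4, 117 and 138 CPM in Inpp5d heterozygotes, at 114 and 124 CPM in Tyrobp knockouts, and at 107, 126 and 104 CPM in the compound mutant. Both Tyrobp knockout libraries were above the NLGF libraries, the lower of them only just, and the other Tyrobp pair of groups overlapped. The log2 fold changes were 0.32 (SE 0.173) and -0.07 (SE 0.156). With the Inpp5d genotype Stat3 differed by 0.31 (95% interval -0.0382 to 0.658, edgeR adjusted p = 0.952) where Tyrobp was present and by -0.08 (95% interval -0.471 to 0.305, edgeR adjusted p = 1) where it was absent. Its exons share bases with Stat5a on the other strand, counted at up to 20 CPM.

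Socs3 showed the pattern by which the set was chosen. It was at 47.9, 40.5 and 36.6 CPM in NLGF, at 68.6, 38.5 and 60.5 CPM in Inpp5d heterozygotes, at 188 and 248 CPM in Tyrobp knockouts, and at 192, 224 and 229 CPM in the compound mutant. Every library without Tyrobp was far above every library with it. In order of level the groups were NLGF (41.7 ± 5.77 CPM), Inpp5d+/-;NLGF (55.9 ± 15.6), the compound mutant (215 ± 19.8) and Tyrobp-/-;NLGF (218 ± 42.9). The first pair and the last pair in this order overlapped, and the gap lay between the Tyrobp genotypes. The ratio of the means was 5.23 for Tyrobp-/-;NLGF over NLGF (log2 fold change 2.39, SE 0.234) and 3.85 for the compound mutant over Inpp5d+/-;NLGF (log2 fold change 1.95, SE 0.216). Socs3 lies on chromosome 11 at 117966079 to 117970047, minus strand, in GRCm38, and no other gene of the table shares its exon bases.

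**Figure D2:**
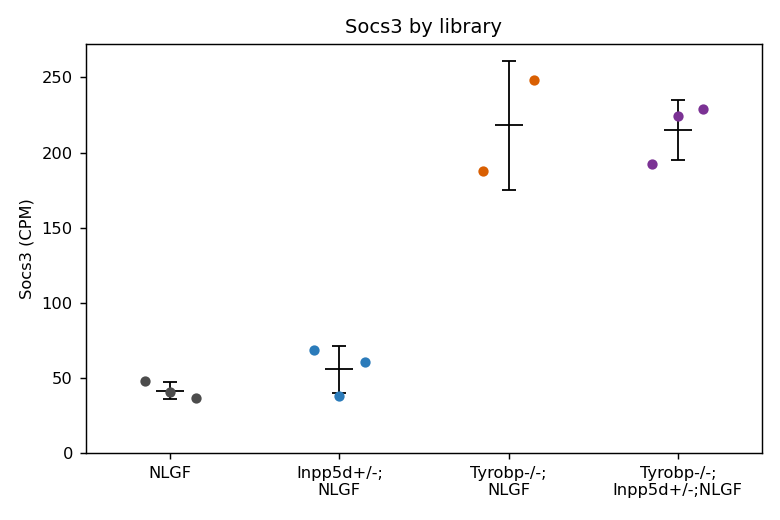
Socs3 in CPM for each library by genotype, with points for libraries and bars for the mean ± SD (n = 3, 3, 2 and 3). The 6 libraries with Tyrobp sit between 36.6 and 68.6 CPM and the 5 without it between 188 and 248 CPM.

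Socs3 was not called between Inpp5d genotypes in either Tyrobp background. Where Tyrobp was present, Inpp5d+/-;NLGF was 0.42 above NLGF on the log2 scale (SE 0.21, 95% interval -0.0472 to 0.892, edgeR adjusted p = 0.952), with 2 of the 3 libraries above all of NLGF. Where Tyrobp was absent, the compound mutant differed from Tyrobp-/-;NLGF by -0.02 (SE 0.233, 95% interval -0.541 to 0.501, edgeR adjusted p = 1). The interaction, the amount by which the Tyrobp difference was larger or smaller with Inpp5d+/-, was -0.44 for Socs3 (SE 0.313, 95% interval -1.14 to 0.257, edgeR adjusted p = 1). These intervals leave room for differences either way, so the tests do not show that Socs3 was equal between Inpp5d genotypes.

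Socs1 (chromosome 16, 10782240 to 10785536) had its lowest mean in NLGF. It was at 8.94, 6.68 and 4.3 CPM in NLGF, at 9.34, 12.1 and 8.01 CPM in Inpp5d heterozygotes, at 11.1 and 10.6 CPM in Tyrobp knockouts, and at 14.6, 11.6 and 14.6 CPM in the compound mutant. Both Tyrobp knockout libraries were above NLGF, and the compound mutant overlapped Inpp5d+/-;NLGF through the library at 12.1 CPM. The log2 fold changes with loss of Tyrobp were 0.71 (SE 0.317) and 0.47 (SE 0.286). With the Inpp5d genotype they were 0.57 (SE 0.288, edgeR adjusted p = 0.952) where Tyrobp was present and 0.33 (SE 0.322, edgeR adjusted p = 1) where it was absent.

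Socs2, an inhibitor of growth hormone signals (chromosome 10, 95385362 to 95417180), was low in all libraries without Tyrobp, opposite to Socs3. Its levels were 3.29, 3.27 and 1.89 CPM in NLGF, 9.96, 3.84 and 3.92 CPM in Inpp5d heterozygotes, 1.81 and 0.167 CPM in Tyrobp knockouts, and 1.02, 0.796 and 1.29 CPM in the compound mutant. All 5 libraries without Tyrobp were below all 6 with it, the closest pair being 1.81 and 1.89 CPM. The log2 fold changes were -1.51 (SE 0.852) and -2.51 (SE 0.761), and counts ran from 9 to 487 per library. The first of these was -4.06 without Tyrobp-/-;NLGF replicate 1 and -0.63 without Tyrobp-/-;NLGF replicate 2, the library at 0.167 CPM. The 3 libraries of Inpp5d heterozygotes all exceeded NLGF, at 1.07 on the log2 scale (95% interval -0.555 to 2.69, edgeR adjusted p = 0.978). Without Inpp5d+/-;NLGF replicate 1, the library at 9.96 CPM, that value was 0.46. The compound mutant differed from Tyrobp-/-;NLGF by 0.06 (95% interval -1.76 to 1.88, edgeR adjusted p = 1).

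Cish, an inhibitor of STAT5 signals (chromosome 9, 107296026 to 107302784), was the lowest of the set per length, with 7 to 83 counts per library. It was at 0.577, 0.534 and 1.03 CPM in NLGF, at 0.9, 0.844 and 0.662 CPM in Inpp5d heterozygotes, at 1.31 and 1.54 CPM in Tyrobp knockouts, and at 0.132, 0.541 and 0.402 CPM in the compound mutant. Both Tyrobp knockout libraries were above NLGF, whereas all 3 compound libraries were below Inpp5d+/-;NLGF. The log2 fold changes with loss of Tyrobp were 0.99 (SE 0.681) and -1.16 (SE 0.628), and with the neutrophil covariate -0.17 (SE 1.11) and -1.94 (SE 0.881). The compound mutant was also below Tyrobp-/-;NLGF without overlap, by -1.98 on the log2 scale (SE 0.686, 95% interval -3.52 to -0.449, edgeR adjusted p = 1 over all genes). Its exons share bases with Gm17040 and Gm17041 on the other strand, counted at up to 0.222 and 0.259 CPM.

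Bcl3 and Pim1 are known STAT3 targets that encode a nuclear IkB protein and a serine/threonine kinase. Bcl3 was at 8.14, 3.14 and 9.6 CPM in NLGF, at 5.38, 2.75 and 5.96 CPM in Inpp5d heterozygotes, at 5.46 and 5.14 CPM in Tyrobp knockouts, and at 8.82, 6.43 and 6.82 CPM in the compound mutant. Its log2 fold changes with loss of Tyrobp had opposite signs, -0.4 (SE 0.482) and 0.65 (SE 0.429), and only the second pair of groups did not overlap. The first value was -0.09 without NLGF replicate 3 and -0.74 without NLGF replicate 2. Bcl3 lies 10.6 Mb from Tyrobp on chromosome 7, at 19808462 to 19822770, and shares exon bases with the antisense gene Gm16175. Pim1 was at 2.32, 1.3 and 1.08 CPM in NLGF, at 2.15, 0.281 and 3.23 CPM in Inpp5d heterozygotes, at 1.45 and 3.4 CPM in Tyrobp knockouts, and at 1.73, 2.56 and 1.95 CPM in the compound mutant. All groups of Pim1 overlapped, with log2 fold changes of 0.63 (SE 0.817) and 0.15 (SE 0.739) for loss of Tyrobp. The first was -0.11 without Tyrobp-/-;NLGF replicate 2. Pim1 lies on chromosome 17 at 29490753 to 29496112 and shares exon bases with the antisense gene Gm26885. Bcl3 differed between Inpp5d genotypes by -0.57 (SE 0.429, edgeR adjusted p = 0.994) where Tyrobp was present and by 0.47 (SE 0.483, edgeR adjusted p = 1) where it was absent, and Pim1 by 0.26 (SE 0.741, edgeR adjusted p = 1) and -0.22 (SE 0.82, edgeR adjusted p = 1).

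Over the 10 genes, Socs3 alone was called at an edgeR adjusted p below 0.05 in both Tyrobp comparisons, higher each time, where the share of all tested genes called was 0.863% in Tyrobp-/-;NLGF against NLGF and 0.897% in the compound mutant against Inpp5d+/-;NLGF. Higher calls made up 0.255% and 0.265% of tested genes. The groups did not overlap for 7 of the 10 genes in the first comparison, beside 29.6% of tested genes, and for 6 of 10 in the second, beside 18.6%. Because the choice of genes used this contrast, these counts, the call of Socs3 among them, are given as a description. The median log2 fold change of the 10 was 0.493 and 0.252, and that of all tested genes was 0.00221 and 0.0238. The sign was the same in both comparisons for 7 of the 10, namely Socs3, Socs1, Il6ra, Il10ra and Pim1 with higher values and Il6st and Socs2 with lower values. It differed for Cish, Stat3 and Bcl3.

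**Figure D3:**
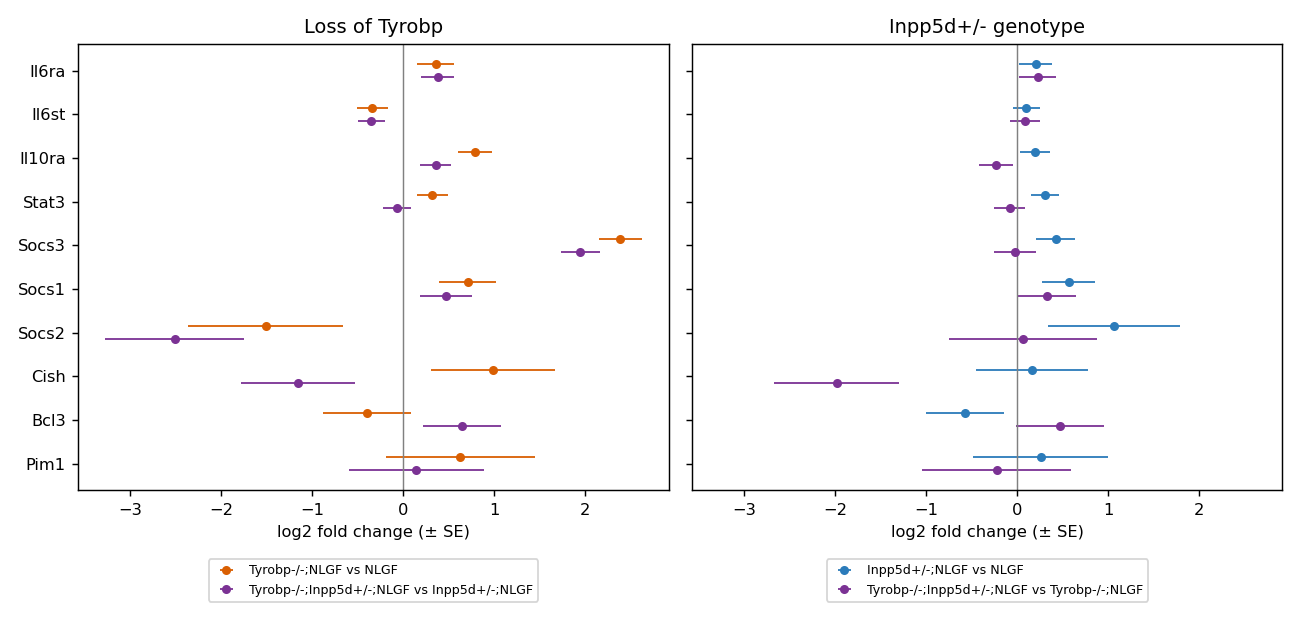
Log2 fold change with its standard error (x axis) for each of the 10 genes (y axis), for loss of Tyrobp on the left and for the Inpp5d+/- genotype on the right, each in both backgrounds. With loss of Tyrobp, Socs3 sits at 2.39 and 1.95 and Socs2 at -1.51 and -2.51. With the Inpp5d genotype, the value farthest from 0 is that of Cish in the Tyrobp-/- background, at -1.98.

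The tests of the Inpp5d genotype called none of the 10 genes in either Tyrobp background, and none in the interaction. Over all 20390 genes edgeR called 0 (0%) between Inpp5d heterozygotes and NLGF, 2 (0.00981%) between the compound mutant and Tyrobp knockouts, and 0 (0%) in the interaction. At an unadjusted p below 0.05 in edgeR there were 951, 831 and 958 genes in these comparisons. Each count is a smaller share of the 20390 genes than 0.05, the share that tests without any difference would give on average. DESeq2 called 29, 50 and 36 genes, none of them among the 10. The groups did not overlap for 1 of the 10 genes (Socs2) in the first comparison, beside 7.62% of all tested genes, and for 4 of 10 (Socs1, Cish, Bcl3 and Il6ra) in the second, beside 18.8%. The median log2 difference of the 10 was 0.233 where Tyrobp was present and 0.0218 where it was absent, with 9 and 5 genes above 0. In simulated counts with changes placed in genes of at least 5 CPM, the test of Inpp5d heterozygotes against NLGF called 34.4% of 2-fold changes and 68.3% of 4-fold changes. That of the compound mutant against Tyrobp knockouts called 25% and 60.6%. These shares do not cover Cish and Pim1, at most 1.54 and 3.4 CPM in any library, or Socs2, below 5 CPM in most libraries. Each simulation changed 200 genes at once, which eases the threshold on the adjusted p, whereas edgeR called 0 and 2 genes in the data. A change in few genes could thus be found less often than these shares. The design can therefore miss 2-fold and 4-fold changes.

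The rest of the pathway was examined with lists of genes chosen by function. Beside the calls below, edgeR called 0.863% and 0.897% of the 20390 tested genes in the 2 Tyrobp comparisons. DESeq2 called 1035 and 1038 of the 20390, and voom 327 in the first comparison. Of 14 ligands of the gp130 and interleukin-10 families, 6 were tested and edgeR called none in any of the 5 comparisons, nor did DESeq2 or voom. At an unadjusted p below 0.05 there was 1 (Osm, in the compound mutant against Inpp5d+/-;NLGF). Il6, the gene of interleukin-6, had the smallest p of the 6 for Tyrobp-/-;NLGF against NLGF. It was at 6.8, 5.87 and 13.3 CPM in NLGF, 7.71, 8.64 and 8.24 CPM in Inpp5d heterozygotes, 12.5 and 18.1 CPM in Tyrobp knockouts, and 15, 15 and 8.89 CPM in the compound mutant. The log2 fold change was 0.82 (SE 0.379, edgeR adjusted p = 0.432), and the groups overlapped through NLGF replicate 3. Il10 had no counts in the 6 libraries with Tyrobp, where a floor of 3 counts stands for 0.0477 to 0.1 CPM, and in 3 of the 5 without it. It was at 0.259 CPM in Tyrobp-/-;NLGF replicate 2 and at 0.0159 CPM in compound replicate 2, the latter below the floor.

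Of 10 other receptor chains that act through STAT3, 6 were tested and edgeR and voom called none in any of the 5 comparisons. DESeq2 called 1 in Tyrobp-/-;NLGF against NLGF (Il27ra, adjusted p = 0.0498) and 2 in the compound mutant against Inpp5d+/-;NLGF (Il11ra1 and Lifr), and 5 edgeR tests of this list over the 5 comparisons had an unadjusted p below 0.05. For Tyrobp-/-;NLGF against NLGF the smallest p was that of Il27ra, at 0 to 6.31 CPM in the libraries (log2 fold change -4.53, SE 1.9, edgeR adjusted p = 0.375). Its 2 Tyrobp knockout libraries were at 0 and 0.185 CPM and NLGF replicate 2 was also at 0, and the fitted value was -9.80 without Tyrobp-/-;NLGF replicate 2 and -3.13 with the neutrophil covariate. Among 9 cytokine receptor chains that use JAK kinases with other STATs, all tested, Csf2ra fell in the compound mutant and edgeR called no other. Csf2ra, the ligand-binding chain for GM-CSF, was at 67.5, 70.4 and 80.9 CPM in Inpp5d heterozygotes and at 33.4, 30.8 and 41.6 CPM in the compound mutant (log2 fold change -1.05, SE 0.146, edgeR adjusted p = 0.0117). In Tyrobp-/-;NLGF against NLGF the same gene differed by -0.63 (SE 0.164, edgeR adjusted p = 0.131), without overlap, and DESeq2 called it and Ifngr1 there. The Csf2ra call was lost when compound replicate 1 or 2 was left out, with an edgeR adjusted p of up to 0.0575. Of the 10 genes for JAK kinases and other STAT factors, edgeR, DESeq2 and voom called none in any of the 5 comparisons, with 3 edgeR tests at an unadjusted p below 0.05, and the one with the smallest p was Jak3 (-0.81, SE 0.27, edgeR adjusted p = 0.242 for Tyrobp-/-;NLGF against NLGF). Of the 13 other inhibitors of JAK-STAT signalling these tools called none either, with 8 edgeR tests at an unadjusted p below 0.05. For Tyrobp-/-;NLGF against NLGF the smallest p there was that of Socs6 (-0.46, SE 0.15, edgeR adjusted p = 0.221).

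Of 25 other STAT3 target genes, 24 were tested. For Tyrobp-/-;NLGF against NLGF, 2 were higher (Fos and Junb) and 1 was lower (Hif1a), and in the compound mutant against Inpp5d+/-;NLGF 1 was higher (Junb) and 1 was lower (Hif1a). Of all tested genes, 0.608% and 0.633% were called lower in these comparisons. Medians over the 24 were 0.199 and 0.258, beside 0.00221 and 0.0238 for all genes. Hif1a, the oxygen-regulated transcription factor, was at 504, 468 and 446 CPM in NLGF, at 428, 520 and 480 CPM in Inpp5d heterozygotes, at 140 and 152 CPM in Tyrobp knockouts, and at 160, 232.9 and 223 CPM in the compound mutant. All libraries without Tyrobp were thus far below the others, opposite to Socs3. The log2 fold change was -1.69 (SE 0.167, edgeR adjusted p = 0.00199) and -1.21 (SE 0.142, edgeR adjusted p = 0.00525). Fos and Junb encode AP-1 subunits and belong to the immediate early genes as well. DESeq2 called 7 and 5 genes of this list in the Tyrobp comparisons, and voom 5 and 2. Over all tested genes DESeq2 called 1035 and 1038, and voom 327 in the first comparison.

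Of the 11 NF-kB subunits and inhibitors, edgeR and voom called none in any of the 5 comparisons, while 7 edgeR tests had an unadjusted p below 0.05. DESeq2 called Nfkbid in both Tyrobp comparisons and Nfkb1 in the second. Nfkbid, which encodes a nuclear IkB protein, was at 79, 50.4 and 19.3 CPM in NLGF, at 73.4, 59.5 and 46 CPM in Inpp5d heterozygotes, at 16.2 and 19 CPM in Tyrobp knockouts, and at 14.9, 11.4 and 15.2 CPM in the compound mutant. All libraries without Tyrobp lay below the others, NLGF replicate 3 only just above them. The log2 fold change was -1.49 (SE 0.48, edgeR adjusted p = 0.22, DESeq2 adjusted p = 0.0168) and -2.11 (SE 0.424, edgeR adjusted p = 0.0601, DESeq2 adjusted p = 7.36e-06). With the neutrophil covariate it was -0.30 and -1.53 (edgeR adjusted p = 0.972 and 0.336), and in the first comparison edgeR called it without NLGF replicate 3 (-1.87, adjusted p = 0.0382).

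Immediate early genes are those that cells induce quickly after a stimulus, also during tissue dissociation. Of the 27 genes of this list, 4 were higher (Fos, Junb, Egr1 and Nr4a1) and none lower for Tyrobp-/-;NLGF against NLGF, and 3 were higher (Junb, Ier5 and Atf3) and 1 lower (Egr2) for the compound mutant against Inpp5d+/-;NLGF. Median log2 fold changes of the 27 were 0.778 and 0.555. Of all tested genes, edgeR called 0.255% and 0.265% higher and 0.608% and 0.633% lower in these comparisons. Fos was at 371, 206 and 117 CPM in NLGF, at 644, 384 and 351 CPM in Inpp5d heterozygotes, at 1528 and 1885 CPM in Tyrobp knockouts, and at 918, 2183 and 2013 CPM in the compound mutant. Fos in every library without Tyrobp exceeded that in every library with it (log2 fold change 2.88, SE 0.491, edgeR adjusted p = 0.0298, and 1.89, SE 0.448, edgeR adjusted p = 0.101). Junb differed by 0.91 (SE 0.146, edgeR adjusted p = 0.0225) and 0.97 (SE 0.134, edgeR adjusted p = 0.011). Egr1, a zinc finger factor, differed by 1.96 (SE 0.361, edgeR adjusted p = 0.042) in the first comparison and Nr4a1, a nuclear receptor, by 2.76 (SE 0.525, edgeR adjusted p = 0.0484). In the second comparison Ier5 differed by 0.76 (SE 0.121, edgeR adjusted p = 0.0207), Atf3 by 0.72 (SE 0.138, edgeR adjusted p = 0.0487) and Egr2 by -1.94 (SE 0.315, edgeR adjusted p = 0.0231).

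Of the immediate early list DESeq2 called 14 and 10 genes in the Tyrobp comparisons and voom 10 and 4, beside 4 and 4 by edgeR. Over all 20390 tested genes DESeq2 called 1035 and 1038, and edgeR 176 and 183. Voom called 327 over all genes in the first comparison. Several of the edgeR calls depended on single libraries. For Tyrobp-/-;NLGF against NLGF, leaving out either Tyrobp-/-;NLGF library, or NLGF replicate 2 or 3, ended the calls of Fos, Junb, Egr1 and Nr4a1. The Junb and Nr4a1 calls were also lost without NLGF replicate 1, that of Fos without Inpp5d+/-;NLGF replicate 2, that of Egr1 without any 1 of the Inpp5d+/-;NLGF libraries or compound replicate 2, and that of Nr4a1 without Inpp5d+/-;NLGF replicate 1 or compound replicate 2 or 3. Adjusted p values in edgeR then reached at most 0.151 for Fos, 0.179 for Junb, 0.2 for Egr1 and 0.226 for Nr4a1. In the second comparison, Ier5 was lost without Inpp5d+/-;NLGF replicate 1 or 2 or compound replicate 1 or 2 (edgeR adjusted p up to 0.0947), and Egr2 without Inpp5d+/-;NLGF replicate 2 or 3 or compound replicate 1 or 2 (edgeR adjusted p up to 0.0949). The Atf3 call was kept in 1 of the 11 fits that each left out a library, the one without NLGF replicate 3 (edgeR adjusted p up to 0.158). Hif1a and, in the second comparison, Junb were called in all 11 such fits. With the neutrophil covariate, and without the 2 libraries with most S100a8, every call named above for these lists was lost except that of Hif1a in the second comparison. Hif1a in the first comparison then had log2 fold changes of -1.85 and -1.63 (edgeR adjusted p = 0.0805 and 0.0538) and Fos of 3.14 and 3.03 (edgeR adjusted p = 0.424 and 0.158), beside -1.69 and 2.88 in the fit of all libraries without the covariate. Csf2ra in the second was at -1.04 and -0.96 (edgeR adjusted p = 0.112 and 0.101), beside -1.05. The SE of Fos was 0.933 and 0.581 in these fits, beside 0.491. Without a filter on low counts Nr4a1 and Atf3 were not called (edgeR adjusted p = 0.0522 and 0.0601). Neither edgeR nor DESeq2 nor voom called a gene of any of these lists between Inpp5d genotypes or in the interaction.

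Socs3 was set beside the levels of these genes in each library. The immediate early list summed to 7873, 4991 and 3468 CPM in NLGF, 9158, 7428 and 5579 CPM in Inpp5d heterozygotes, 10990 and 12750 CPM in Tyrobp knockouts, and 9809, 13730 and 13020 CPM in the compound mutant. The sums were higher in all libraries without Tyrobp than in those with it, as for Socs3, and the part of the sorting or dissociation response in the Socs3 values was not tested. The closest libraries across the Tyrobp genotypes were Inpp5d+/-;NLGF replicate 1 and compound replicate 1, at 9158 and 9809 CPM of the list, and their Socs3 levels were 68.6 and 192 CPM.

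Neutrophil markers were set beside Socs3 in the same way, since neutrophils also carry CD11b and CD45. Their sum was 0.641, 232.6 and 84.6 CPM in NLGF, 126, 52.6 and 185 CPM in Inpp5d heterozygotes, 18600 and 4261 CPM in Tyrobp knockouts, and 244, 9609 and 2214 CPM in the compound mutant. Between 1 and 7 of the 12 markers had no counts in each library with Tyrobp, and none was at 0 in the others. Compound replicate 1 held 244 CPM of these markers, close to the 232.6 CPM of NLGF replicate 2, and the Socs3 levels of this pair were 192 and 40.5 CPM. Tyrobp-/-;NLGF replicate 1 had the most neutrophil markers and the least Socs3 of the Tyrobp-/- libraries. Without the 2 libraries with most S100a8 (Tyrobp-/-;NLGF replicate 1 and compound replicate 2), the log2 fold change of Socs3 was 2.58 (SE 0.283) and 1.92 (SE 0.243). With the neutrophil level as a covariate the fold changes were 2.43 (SE 0.417) and 1.97 (SE 0.275), beside 2.39 (SE 0.234) and 1.95 (SE 0.216) without it. With this covariate edgeR no longer called Socs3 in the first comparison, and still called it in the second. These calls are a description only, since Socs3 was chosen on the Tyrobp contrast. The marker sums, like Socs3, did not overlap between libraries with and without Tyrobp. The part of neutrophils in the Socs3 values was not tested.

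**Figure D4:**
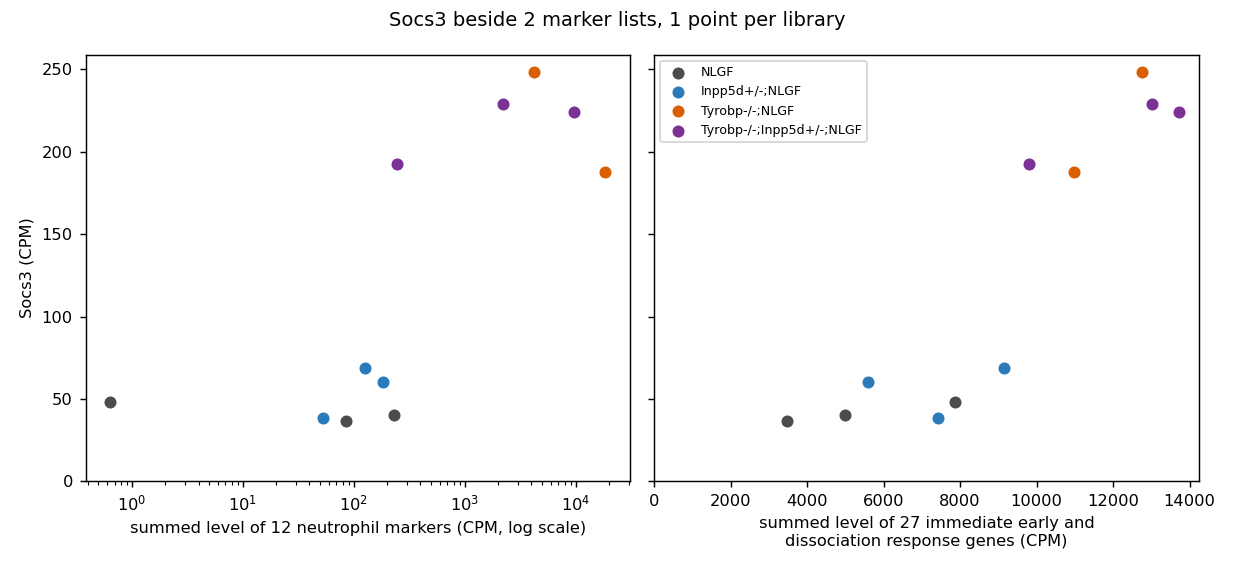
Socs3 in CPM (y axis) against the summed CPM of 12 neutrophil markers (left, log scale) and of 27 immediate early and dissociation response genes (right), 1 point per library, coloured by genotype. Compound replicate 1, at 192 CPM of Socs3, lies beside libraries with Tyrobp on both x axes, at 244 CPM of neutrophil markers and 9809 CPM of the immediate early list.

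Genes whose levels followed Socs3 most closely over the 11 libraries were sought outside the set of 10. The search covered 10453 genes with a mean of at least 5 CPM. Likeness was measured as the root mean square difference of log2(CPM + 1) after centring each gene on its mean, so that smaller values mean closer profiles. The 6 nearest genes were Egr1 (0.398), Gm25994 (0.411), Dusp2 (0.456), Kdm6b (0.457), Klf2 (0.46) and Gm26740 (0.487). Egr1 and Klf2 encode zinc finger factors of the immediate early list, Dusp2 a phosphatase of MAP kinases, and Kdm6b a histone H3 lysine demethylase. Gm25994 is annotated as a miRNA gene (chromosome 11, 106783171 to 106783271), and whether its reads came from a miRNA was not tested. Gm26740 is annotated as an antisense gene. Of these, Dusp2 was at 8.01, 5.51 and 6.79 CPM in NLGF, at 12.5, 8.38 and 11.6 CPM in Inpp5d heterozygotes, at 24.7 and 21.6 CPM in Tyrobp knockouts, and at 21.8, 19.4 and 32.7 CPM in the compound mutant. Kdm6b was at 10.2, 11.4 and 6.27 CPM, at 15.3, 12.4 and 13.5 CPM, at 25 and 40.3 CPM, and at 31.6, 29.3 and 27.3 CPM in the same order of groups. Every one of the 6 was higher in all Tyrobp-/- libraries than in all others, a pattern that the likeness to Socs3 selects. The 9 other genes of the set were left out of this ranking, so it does not show how close they lie to Socs3.

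**Figure D5:**
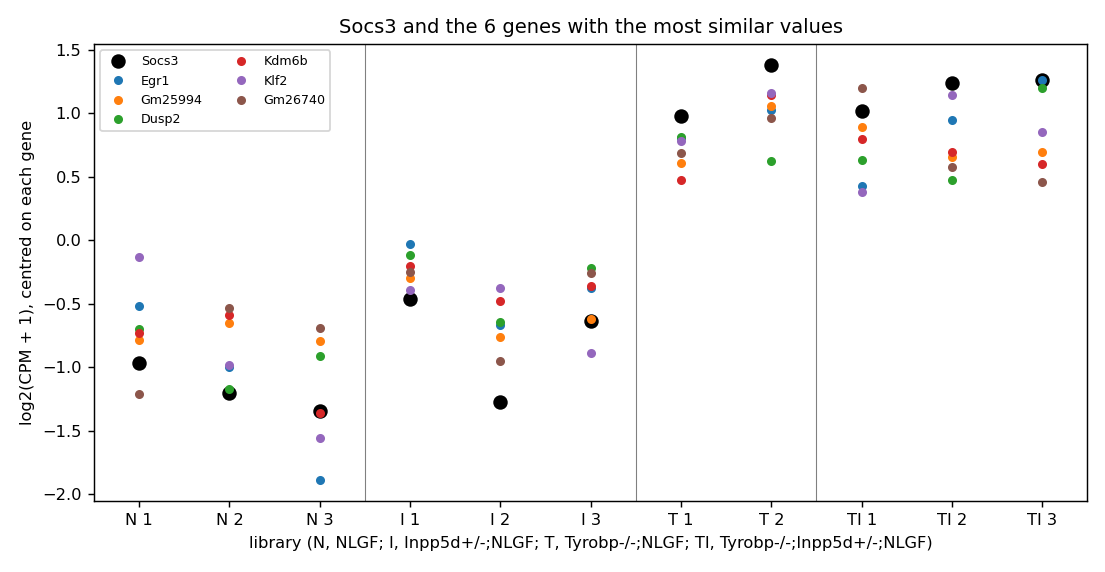
Log2(CPM + 1) centred on each gene (y axis) in the 11 libraries (x axis) for Socs3 and the 6 genes with the smallest root mean square difference from it. The points of all 7 genes lie below 0 in the 6 libraries with Tyrobp and above 0 in the 5 without it.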

How the data were processed

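RNA was extracted from flow-sorted cells and made into libraries with SMART-Seq v4, a full-length cDNA kit without strand marking, per the labels' protocols. STAR 2.7.3a, featureCounts 1.6.4 and the builds GRCm38.p6 and mm10 are named in the submitters' processing notes. The authors deposited whole-number read counts per gene without normalization, with each gene's length in bases, a unit of its own. Not given in the sources used here are the annotation release, the strand setting and the treatment of multiply aligned reads.

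Genes were kept with filterByExpr (minimum count 10, minimum total 15). One edgeR 4.0.16 quasi-likelihood model (R 4.3.3) with TMM scaling and 1 coefficient per genotype was fitted to all 11 libraries, and p values were adjusted by Benjamini-Hochberg over all 20390 genes, with a threshold of 0.05. CPM use the scaled library sizes, and RPKM divide these by the deposited length. SE and 95% intervals come from the test statistic. Replicate numbers were given in accession order and do not pair samples. No pair of libraries held identical counts. The labels do not say whether libraries of a group are separate animals, so p values cover only the spread among them, which may be technical. Floors cover counting error only.

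The 10 genes, the lists and the tests were chosen with earlier results of these data known. Genes named from a list were those called (at most 4 per comparison, by smallest p) or, where none was, the one with the smallest p for Tyrobp-/-;NLGF against NLGF. Also named were Tyrobp, Inpp5d and the 6 genes outside the set most like Socs3. The fit was tested on simulated data in which 200 genes of at least 5 CPM were changed. Alternatives were RLE scaling, no filter, DESeq2 1.42.0, voom with quality weights (limma 3.58.1), a neutrophil covariate, and leaving out each library or the 2 with most S100a8.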

Additional observations from a re-analysis of the deposited data

Results flagged for a closer look

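Cish stood out because its groups moved in opposite directions with loss of Tyrobp. Both Tyrobp-/-;NLGF libraries (1.31 and 1.54 CPM) were above the 3 NLGF libraries, and all 3 compound libraries (0.132 to 0.541 CPM) were below the 3 Inpp5d+/-;NLGF libraries. The interaction was -2.15 on the log2 scale (SE 0.925, 95% interval -4.21 to -0.0788), with an unadjusted p of 0.0433 and an adjusted p of 1 over all genes in edgeR, so it did not pass the correction. It rests on 7 to 83 counts per library. With the neutrophil level as a covariate both differences had the same sign, -0.17 (SE 1.11) and -1.94 (SE 0.881). With 2 or 3 libraries per group, no group was large enough to look for single outlying libraries.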

How the results depend on the processing

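No paired analysis was possible because the labels number no replicates across groups. The numbers of genes called for Tyrobp-/-;NLGF against NLGF, the compound mutant against Inpp5d+/-;NLGF, Inpp5d+/-;NLGF against NLGF, the compound mutant against Tyrobp-/-;NLGF and the interaction were 176, 183, 0, 2 and 0. DESeq2 called 1035, 1038, 29, 50 and 36, and 2 of the 10 genes in each of the first 2 comparisons, adding Il10ra and Socs2 in turn, which are no evidence for genes chosen on this contrast. Voom called 327 in the first, with 2 of the 10 genes (Il10ra again), and 0 in the fourth. With the neutrophil covariate the first, the second and the fourth counts were 14, 42 and 0, with 0 of the 10 genes in the first. Without the 2 libraries with most S100a8 they were 27, 50 and 0, and without a filter the fourth was 1. Leaving out 1 library gave 31 to 201, 66 to 183, 0 to 0, 0 to 1 and 0 to 1. The lowest first count came without Tyrobp-/-;NLGF replicate 1, and the lowest second count without compound replicate 1. The first count moved by over 1.5 times without NLGF replicate 2 or 3 or either Tyrobp-/-;NLGF library, and the second without any 1 Inpp5d+/-;NLGF library or compound replicate 1 or 2. Where 1 Tyrobp-/-;NLGF library was left out, the other was assumed to vary like the remaining groups. Over these fits the log2 fold change of Socs3 was 2.17 to 2.58 and 1.74 to 2.12, a description since Socs3 was chosen on it. The cause of these shifts was not tested, apart from fewer libraries where libraries were left out.

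Of the 10 genes, those below reversed in sign, none of them in a value called in edgeR. Under voom they were -0.16 for Pim1 in the third comparison, 0.001964 for Socs3 in the fourth and 0.03367 for Pim1 in the interaction. With the covariate Cish was at -0.169 in the first comparison. Without the 2 libraries with most S100a8 Pim1 was at -0.02974 in the second, and the interaction was 1.70 for Socs2, 0.02024 for Il6st and -0.05635 for Il6ra. Leaving out 1 library, the ranges that crossed 0 were those of Pim1 in the 5 comparisons (-0.1118 to 1.117, -0.3627 to 0.7787, -0.3703 to 0.7692, -0.7119 to 0.517 and -0.9882 to 0.2565), Stat3 in the second (-0.1814 to 0.05943), Cish (-0.005949 to 0.5347) and Il6st (-0.04632 to 0.2183) in the third, Socs3 (-0.2104 to 0.196) and Socs2 (-0.8089 to 2.613) in the fourth, and Socs2 (-1.881 to 1.542), Il6st (-0.1302 to 0.1331) and Il6ra (-0.1322 to 0.158) in the interaction. RLE scaling kept every direction and call of the 117 values recomputed. Cish (0.132 to 1.54 CPM), Pim1 (0.281 to 3.4 CPM) and Socs2 (0.167 to 9.96 CPM) are the genes most limited by depth.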
